A study of Mus musculus with 9 samples.

Results

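The 35 genes described here mark the path from basal stem cell to immature olfactory neuron, and they were read in cells sorted as mature olfactory sensory neurons. They were taken by symbol from the 55291 genes of the expected-count table, in all 9 libraries. The list holds 5 genes of basal stem cells, 11 of the cell cycle, 5 of neuronal precursors and 14 of immature neurons. A filter on low counts left 16399 genes for testing, among them 33 of the 35. Neurog1 and Cxcr4 did not pass it.

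The olfactory epithelium replaces its neurons throughout life. Horizontal basal cells, a reserve of stem cells held quiet by the transcription factor p63, lie below globose basal cells, which divide and give rise to neuronal precursors under proneural factors such as Neurog1 and Neurod1. A precursor leaves the cell cycle, becomes an immature neuron marked by the growth protein Gap43 and the G protein subunit Gng8, and then a mature neuron marked by Omp and the G protein subunit Gng13.

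The libraries came from mice in which an odorant receptor allele also encodes a fluorescent protein, so that neurons which chose the allele are labelled. The genotypes were Olfr1507-IRES-GFP, Olfr73-IRES-GFP and Olfr160-IRES-mCherry, with 3 libraries each, called Olfr1507, Olfr73 and Olfr160 below. After dissociation with papain, cells with a high reporter signal and low DAPI were collected by flow cytometry, and polyadenylated RNA was sequenced from low-input libraries. The reporter of Olfr160 is not that of the other genotypes, so allele and reporter cannot be told apart there. The labels do not tie the libraries of a genotype to different animals. The p-values therefore rest on the variation among these libraries alone, and that variation could be technical.

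The libraries held 17212807 to 36230606 counts, so that 3 counts corresponded to 0.099 to 0.167 normalised CPM (counts scaled to a common effective library size). Omp, the defining marker of mature neurons, was high in all 9 libraries, at 22311 to 24878 normalised CPM in Olfr1507, 15236 to 17489 in Olfr73 and 8335 to 13246 in Olfr160. The tagged receptor made up 94.7%, 85.1% and 91.7% of the counts of all Olfr genes in Olfr1507, 22.8%, 23.6% and 32.8% in Olfr73, and 2.08%, 4.54% and 10.1% in Olfr160. In Olfr73 and Olfr160 most Olfr counts therefore came from other receptors than the tagged one. In bulk samples like these, fewer cells of a type and less RNA per cell cannot be told apart.

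Markers of other cells of the nose differed between the groups alongside the lineage genes. In Olfr1507 over Olfr160, all 12 tested markers of sustentacular cells and glands, all 11 of immune cells, all 7 of red blood cells and all 12 of glia, stroma and vessels were called lower, and so were 5 of 7 of microvillar cells and 3 of 7 of respiratory epithelium. The summed level of the sustentacular and gland list was 323.7 to 545.6 normalised CPM in Olfr1507, 3544 to 6206 in Olfr73 and 18259 to 33446 in Olfr160. The immune list summed to 2.43 to 6.14 normalised CPM in Olfr1507, 78.3 to 110.9 in Olfr73 and 264.1 to 726.7 in Olfr160, and Csf1r, Mpo and Cpa3 were at 0 in all Olfr1507 libraries. The red blood cell list summed to 2.68 to 11.8 normalised CPM in Olfr1507, 5.87 to 64.1 in Olfr73 and 86.2 to 586.7 in Olfr160, and the list of glia, stroma and vessels (Sox10 at 0 in all Olfr1507 libraries, Cdh5 in all Olfr73 libraries) to 18.01 to 25.02 in Olfr1507, 122.4 to 320.1 in Olfr73 and 558.9 to 1016.7 in Olfr160. Sums of the other lists were 444.8 to 595.7 normalised CPM in Olfr1507, 1219.7 to 2403 in Olfr73 and 4653 to 11162 in Olfr160 for respiratory epithelium, mostly Bpifa1 in Olfr73 and Olfr160, and 55.4 to 75.4 in Olfr1507, 26.96 to 51.4 in Olfr73 and 102.4 to 158.3 in Olfr160 for microvillar cells. Within these 2 lists some genes ran against the rest. Of the cilia genes, Tekt1 averaged 187 ± 9.90 normalised CPM in Olfr1507, 112 ± 5.80 in Olfr73 and 81.8 ± 8.61 in Olfr160 (SD, n = 3 each). Tekt1, Foxj1 and Rsph1 were higher in Olfr1507 over Olfr160, though all 3 were below 0 (log2 fold changes -0.36, -0.30 and -0.54) with libraries scaled to the transduction genes. Pou2f3, of microvillar and brush cells, made up most of its list's sum in Olfr1507, at 60.6 ± 11.1 normalised CPM, against 24.5 ± 2.10 in Olfr73 and 12.6 ± 0.105 in Olfr160 (SD, n = 3 each). The 17 genes of olfactory transduction in mature neurons had a higher sum in Olfr1507 than in the other groups, of 109831 to 113763 normalised CPM in Olfr1507, 58541 to 61525 in Olfr73 and 28659 to 50489 in Olfr160. The part of other cells in the differences given below was not tested.

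**Figure D1:**
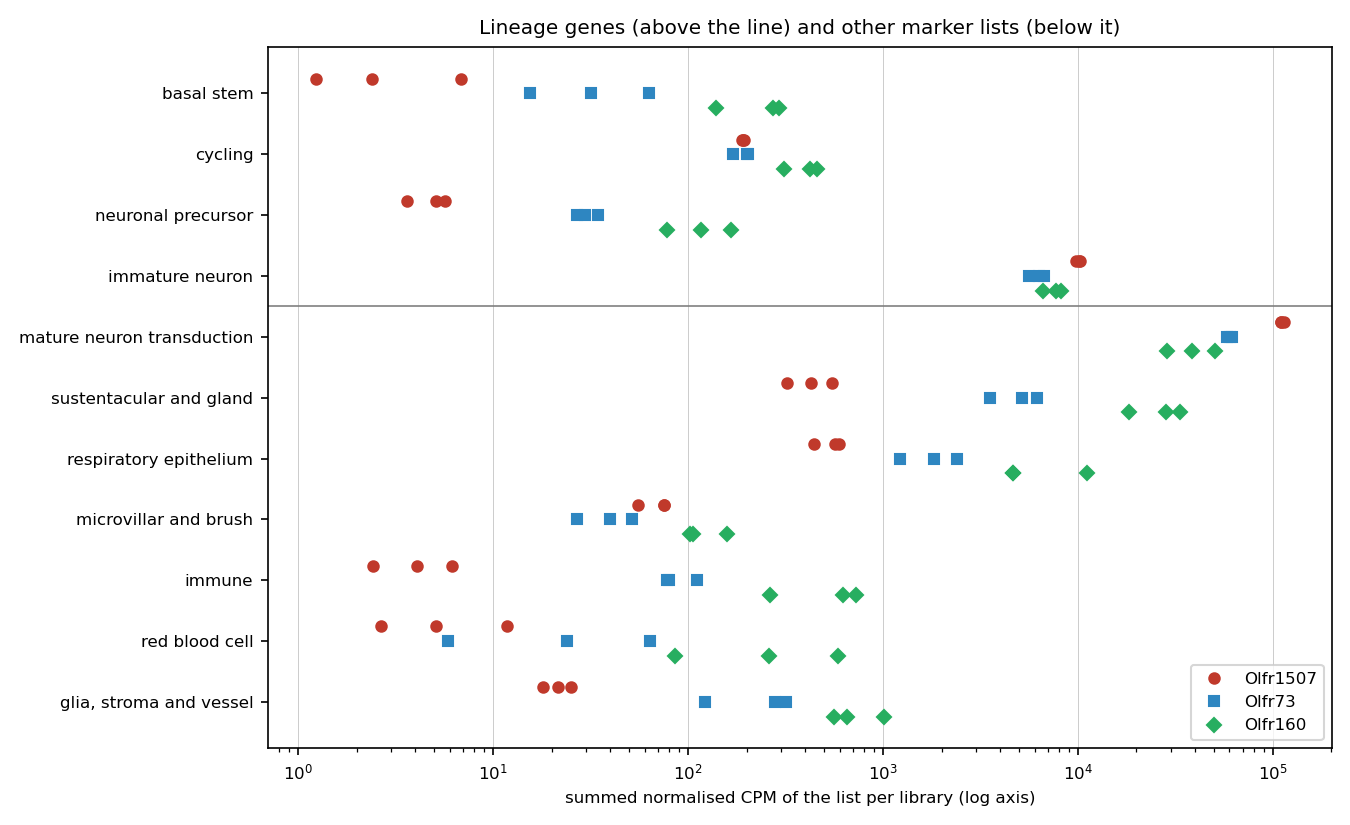
Summed normalised CPM of each gene list on a log axis, with 1 point per library; the lineage genes stand above the line, and lists of mature neurons and of other cells below it. The basal stem sums (1.24 to 6.89 in Olfr1507, 15.5 to 63.3 in Olfr73 and 139.9 to 293.4 in Olfr160) and the precursor sums separate the groups completely, as the sustentacular and immune sums do. The immature neuron sum, which is mostly Tuba1a, is highest in Olfr1507 on this scale but not where libraries are scaled to the transduction genes. As a plain share of counts it overlaps, at 0.816% to 0.867% in Olfr1507 and 0.799% to 0.901% in Olfr160.

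Most lineage genes were lower in Olfr1507 than in Olfr160, by most for the basal stem genes and by least for the immature neuron genes. In Olfr1507 over Olfr160, 22 of the 33 tested genes were lower and 5 were higher at an edgeR adjusted p of 0.05, beside 27.7% of all tested genes called lower and 20.7% called higher. The median log2 fold change was -2.34 over the 33 genes and -0.14 over all tested genes. By stage it was -5.79 for basal stem genes, -2.49 for cycling genes, -3.39 for neuronal precursor genes and -0.35 for immature neuron genes. The libraries of the 2 groups did not overlap for 29 of the 33 genes, where 36.8% of all tested genes lay apart with Olfr1507 lower and 29% with Olfr1507 higher. With library size alone as the scale, 28 genes were lower and 2 higher, beside 38.1% and 8.2% of all tested genes. With libraries scaled to the transduction genes, all 33 were lower and the count of higher genes was 0, also at an unadjusted p of 0.05, but on that scale 84.7% of all tested genes were lower and 0.707% higher. The 5 higher calls became 3 without Olfr1507 library 1 or 3, or without Olfr160 library 1 or 2. Of all tested genes, 15.9% to 16.5% were then higher.

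Olfr73 lay between the other groups for most of the list. In Olfr1507 over Olfr73, 17 genes were lower and 3 higher (median log2 fold change -1.06), beside 19.9% of all tested genes lower and 14.5% higher, and a median of -0.15. In Olfr73 over Olfr160, 19 were lower and 2 higher, with a median of -1.32, beside 10.5% and 7.45% of all tested genes, and a median of -0.01. The groups lay apart for 23 of the 33 genes in Olfr1507 over Olfr73, beside 24.9% of all tested genes apart with Olfr1507 lower and 22.7% with Olfr1507 higher, and for 26 in Olfr73 over Olfr160, beside 23.8% apart with Olfr73 lower and 17.2% with Olfr73 higher. The 3 comparisons share their libraries, so they are not independent of each other. For Olfr1507 over Olfr73 the split of 17 lower and 3 higher became 20 and 1 with library size alone (28.6% and 6.38% of all tested genes) and 26 and 0 with libraries scaled to the transduction genes (56.3% and 2.16%). In the same comparison the count of lower genes became 10 without Olfr1507 library 1, where 12% of all tested genes were lower. That of higher genes became 1 without Olfr1507 library 2, where 9.25% of all tested genes were higher. For Olfr73 over Olfr160 the count of lower genes became 7 without Olfr160 library 2, where 3.88% of all tested genes were lower. It became 12 without Olfr160 library 1 (4.97%) or Olfr73 library 3 (7.16%). The count of higher genes became 1 without Olfr160 library 2 (1.88%).

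**Figure D2:**
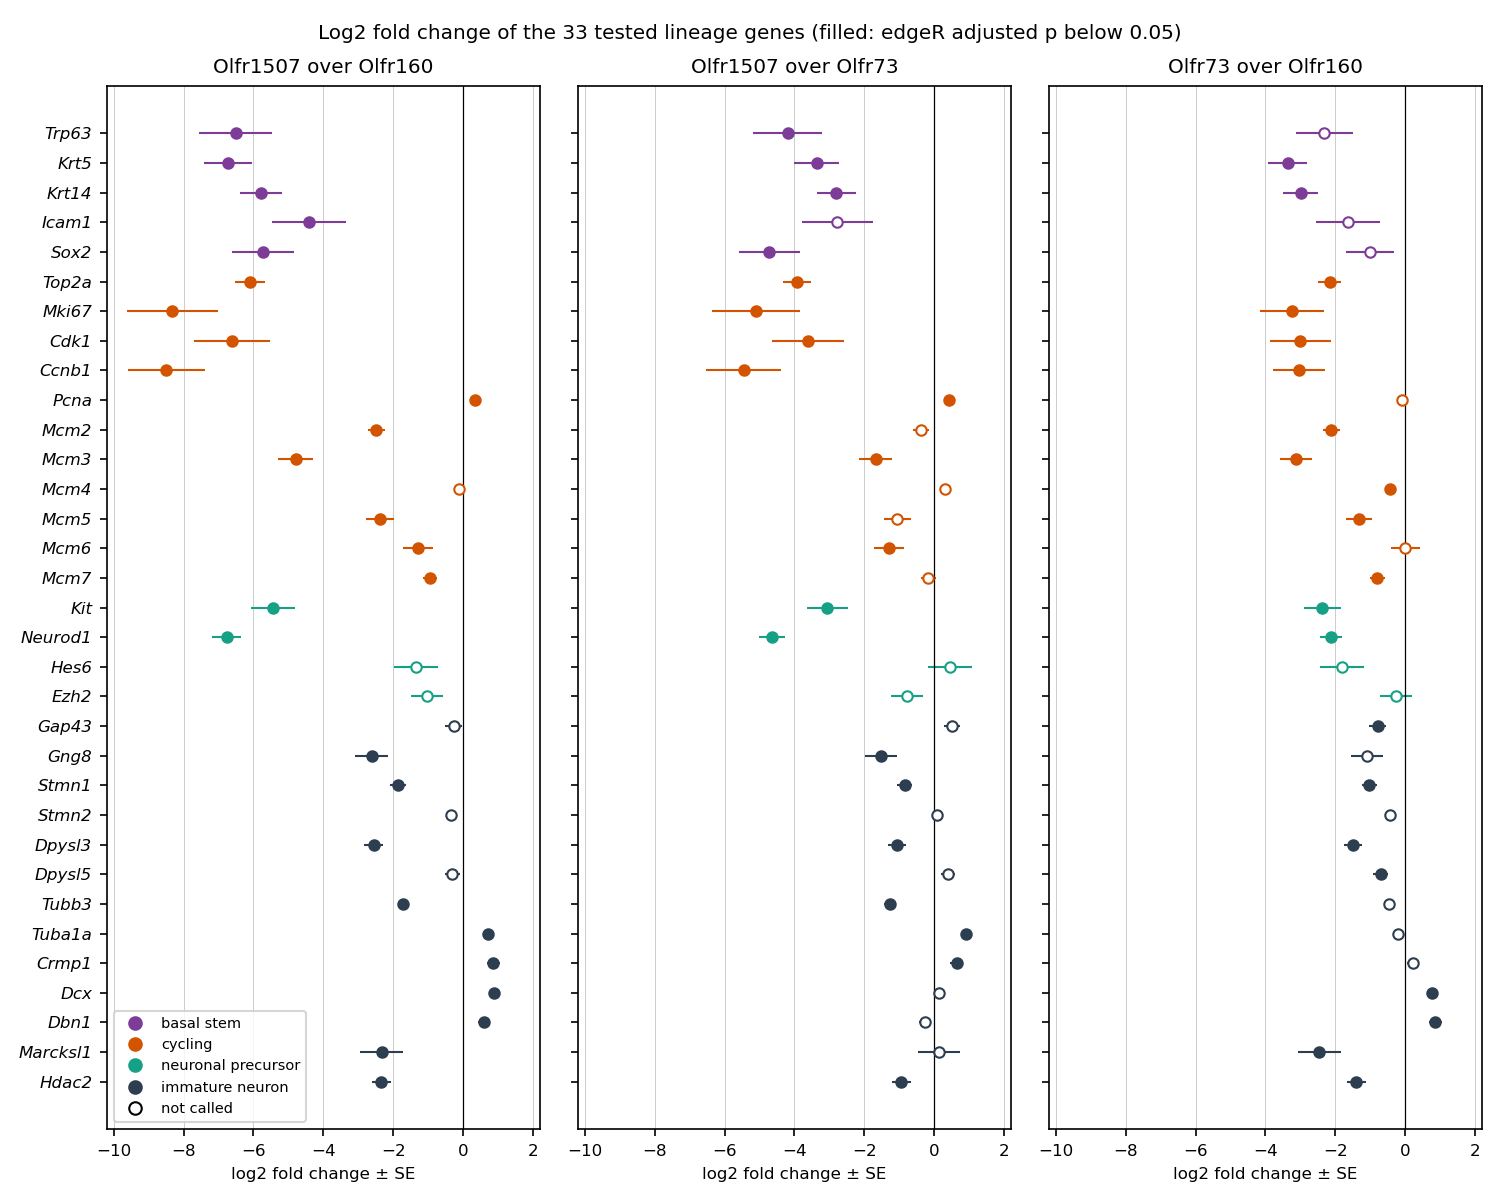
Log2 fold change with its standard error (SE) of the 33 tested genes in the 3 comparisons, coloured by stage; filled points passed an edgeR adjusted p of 0.05. Basal stem and mitotic genes lie far to the left in Olfr1507 over Olfr160, while Pcna, Tuba1a, Crmp1, Dcx and Dbn1 lie to the right of 0, a direction that all 5 lose when libraries are scaled to the transduction genes (and Pcna also with library size alone).

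Basal stem genes were at a trace in Olfr1507 and highest in Olfr160. Trp63, which encodes the p63 factor of reserve stem cells (chr16:25683763-25892102 in mm10), had 0.0539, 1.42 and 0.167 normalised CPM in Olfr1507, 20.9, 12.1 and 1.82 in Olfr73, and 46.8, 78.2 and 49.1 in Olfr160. Krt5, a keratin of basal cells (chr15:101707070-101712898), had 0.377, 1.25 and 0.725 normalised CPM in Olfr1507, 15.5, 6.55 and 3.68 in Olfr73, and 120.4, 95.3 and 49.5 in Olfr160. Its partner keratin Krt14 (chr11:100203162-100207548) had 0.755, 1.72 and 0.837 normalised CPM in Olfr1507, 11.3, 8.51 and 4.19 in Olfr73, and 92.8, 69.8 and 28.4 in Olfr160. For these 3 genes no library of one group overlapped another group, and the 3 Olfr160 libraries were the highest of the 9. In Olfr1507 over Olfr160 the log2 fold change was -6.51 ± 1.04 for Trp63 (SE, edgeR adjusted p = 0.00102), -6.73 ± 0.68 for Krt5 (adjusted p = 8.53e-05) and -5.79 ± 0.60 for Krt14 (adjusted p = 9.14e-05). For Krt5 this is a level 106.1 times lower in Olfr1507.

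Icam1, an adhesion molecule of horizontal basal cells that vessels and immune cells also carry, had 0, 2.44 and 0.669 normalised CPM in Olfr1507, 14.9, 3.88 and 3.68 in Olfr73, and 29.9, 29.3 and 10.8 in Olfr160. Olfr73 overlapped Olfr160, and of its 3 comparisons Olfr1507 over Olfr160 passed the test (log2 fold change -4.40 ± 1.06, SE, adjusted p by edgeR 0.00811). Sox2, a stem cell factor that sustentacular cells also express, had 1, 2 and 0 counts in Olfr1507, 17, 20 and 46 in Olfr73, and 73, 52 and 48 in Olfr160. Its level was 56.6 times lower in Olfr1507 than in Olfr160 (95% counting interval 19.0 to 277.1) and 28.2 times lower than in Olfr73 (9.31 to 139.4), where intervals cover counting error only.

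Between Olfr73 and Olfr160, Krt5 (log2 fold change -3.36 ± 0.56, edgeR adjusted p = 0.00591) and Krt14 (-2.99 ± 0.50, adjusted p = 0.00639) were lower, and Trp63 did not pass the test (-2.32 ± 0.81, adjusted p = 0.0787). Against Olfr73, 4 of the 5 basal stem genes were lower in Olfr1507, and Icam1 did not pass (log2 fold change -2.77 ± 1.01, edgeR adjusted p = 0.0589). Among 9 other genes of basal cells, 8 were lower in Olfr1507 over Olfr160, 6 in Olfr1507 over Olfr73 and 4 in Olfr73 over Olfr160, with median log2 fold changes of -6.26 (-5.97 with Col17a1, at 0 in Olfr1507, set at its bound), -3.51 (-3.17) and -2.63. The laminin chain Lamb3, the growth factor receptor Egfr and the keratin Krt17 had log2 fold changes of -6.26 ± 0.50, -6.30 ± 0.59 and -5.72 ± 0.73 in Olfr1507 over Olfr160. The ninth gene, the cadherin Cdh3, named after its values were seen, had 47.3, 43.8 and 44.2 normalised CPM in Olfr1507, 0.880, 6.22 and 0.0466 in Olfr73, and 20.0, 14.8 and 9.33 in Olfr160. On the main scale it stood apart from the rest of its list, with every Olfr1507 library above every other library. Cdh3 did not pass the test in Olfr1507 over Olfr160 (log2 fold change 1.62). It was called higher over Olfr73 (4.24, or 3.38 with libraries scaled to the transduction genes).

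**Figure D3:**
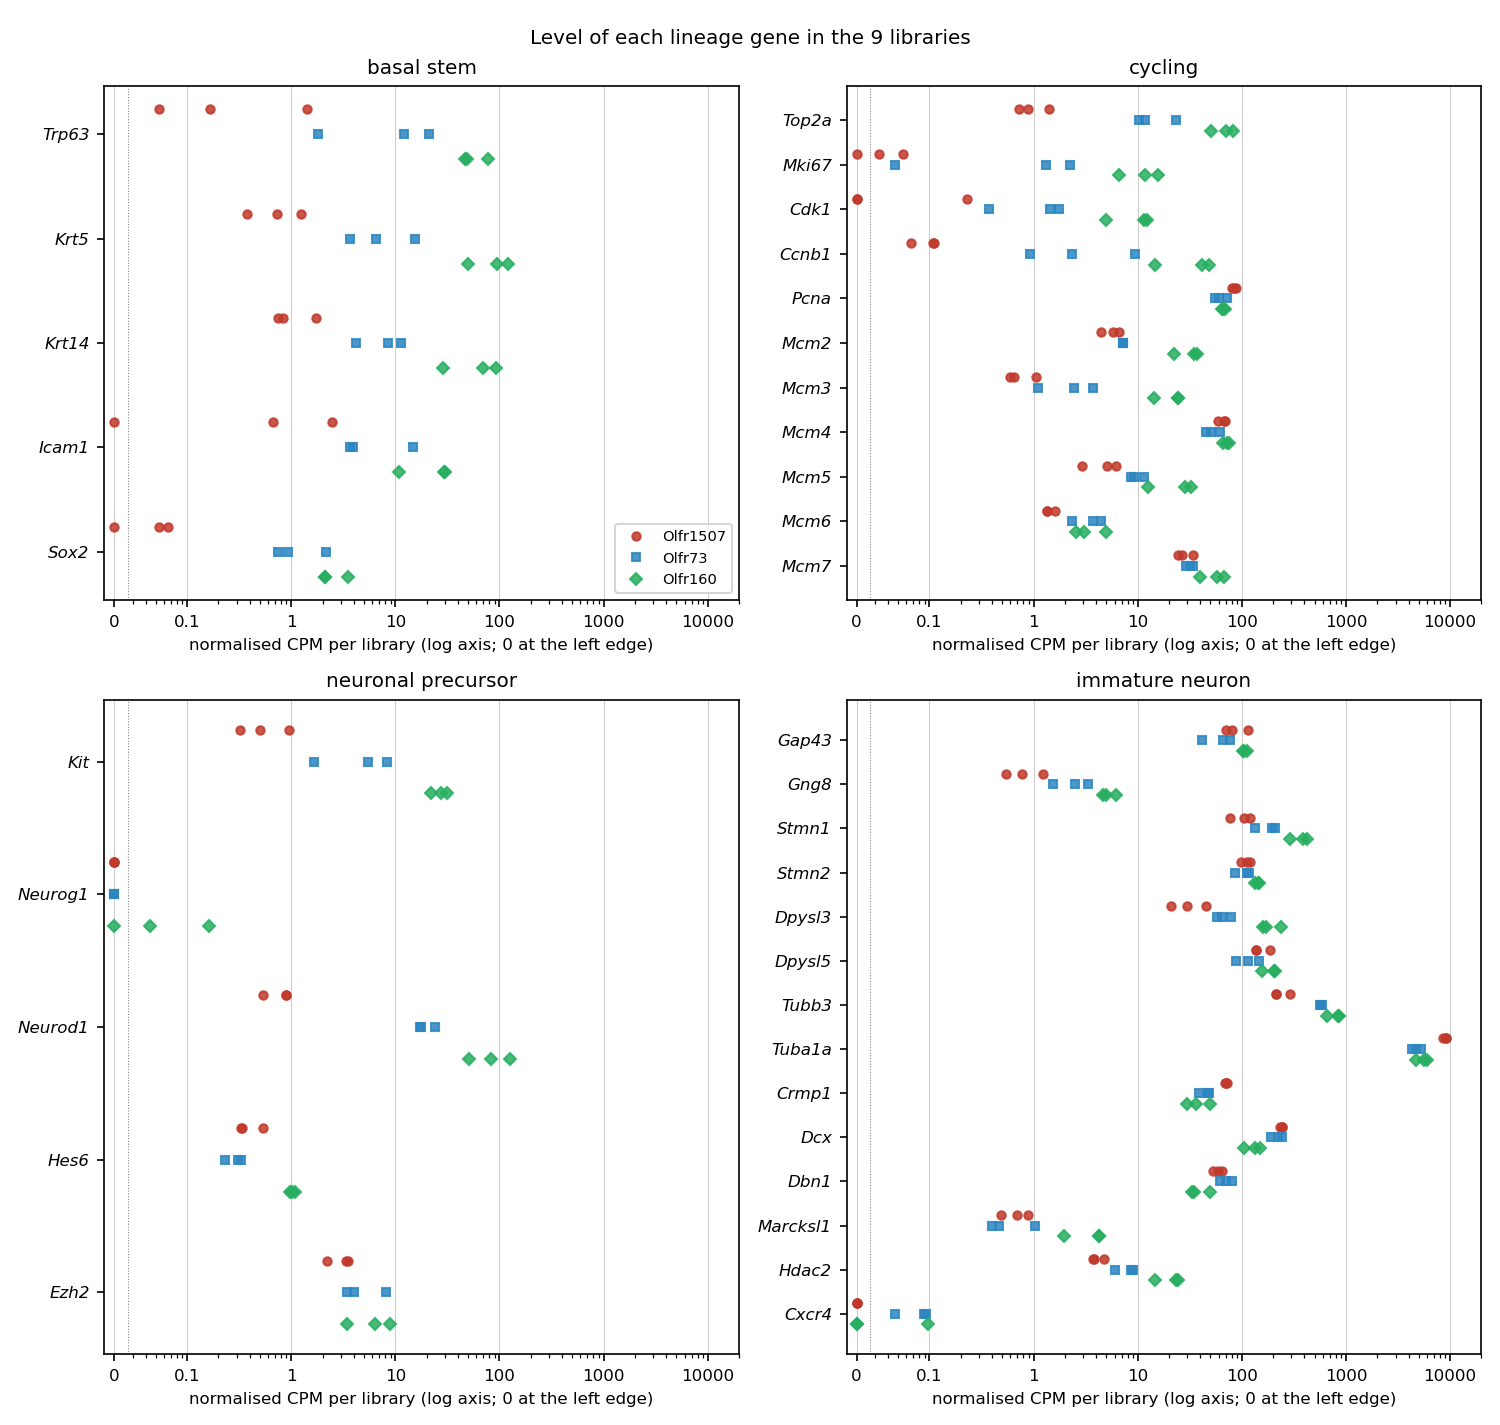
Normalised CPM of each of the 35 genes in each library, by stage, on a log axis with values of 0 at the left edge. The basal stem genes of Olfr1507 lie at or below 2.44, whereas Pcna, Mcm4 and Mcm7 of the cell cycle and 10 of the 14 immature neuron genes lie at 21.0 or above in all 9 libraries.

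The cycling genes of the list split into those of mitosis, which were at a trace in Olfr1507, and those of DNA replication, of which some were high in all groups. Top2a, the topoisomerase that untangles chromosomes for mitosis (chr11:98992943-99024189), had 1.40, 0.726 and 0.892 normalised CPM in Olfr1507, 10.3, 23.1 and 11.7 in Olfr73, and 70.7, 81.6 and 50.2 in Olfr160. Ccnb1, the cyclin that starts mitosis (chr13:100778650-100786570), had 0.108, 0.0660 and 0.112 normalised CPM in Olfr1507, 0.924, 2.34 and 9.45 in Olfr73, and 41.4, 48.4 and 14.6 in Olfr160. Its Olfr1507 values rest on 2 counts in each library. Cdk1, the kinase that Ccnb1 activates (chr10:69335146-69352938), had 0, 0.231 and 0 normalised CPM in Olfr1507, 1.76, 0.374 and 1.44 in Olfr73, and 11.6, 12.3 and 4.98 in Olfr160. For all 3 genes the groups stood apart, highest in Olfr160 and lowest in Olfr1507. The log2 fold change in Olfr1507 over Olfr160 was -6.09 ± 0.43 for Top2a (SE, edgeR adjusted p = 1.69e-05), -8.50 ± 1.10 for Ccnb1 (adjusted p = 0.000311) and -6.61 ± 1.09 for Cdk1 (adjusted p = 0.0012). Mki67, the Ki-67 antigen of dividing cells (chr7:135689784-135716361), had 0, 0.0330 and 0.0558 normalised CPM in Olfr1507, 1.32, 2.25 and 0.0466 in Olfr73, and 11.7, 15.8 and 6.57 in Olfr160, from 2, 79 and 783 counts in those groups. Olfr73 library 3 was as low as Olfr1507. The level of Mki67 was 384.2 times lower in Olfr1507 than in Olfr160 (95% counting interval 106 to 3178).

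All 4 mitotic genes were lower in the other comparisons too, with a median log2 fold change of -4.51 in Olfr1507 over Olfr73 and -3.02 in Olfr73 over Olfr160, beside -7.47 in Olfr1507 over Olfr160. Top2a had a log2 fold change of -3.92 ± 0.40 in Olfr1507 over Olfr73 (SE, edgeR adjusted p = 0.000198) and -2.17 ± 0.34 in Olfr73 over Olfr160 (adjusted p = 0.00499). Some other calls were lost when any of several libraries was left out, while the log2 fold changes kept their direction. The adjusted p of Mki67 in Olfr73 over Olfr160 (0.0399 with all libraries) was 0.0737 to 0.136 without Olfr73 library 1 or Olfr160 library 1 or 2, that of Ccnb1 (0.0256) was 0.067 to 0.0892 without Olfr73 library 2 or Olfr160 library 1 or 2, and that of Cdk1 (0.0431) was 0.0556 to 0.146 without any Olfr73 library or Olfr160 library 1 or 2. That of Mki67 in Olfr1507 over Olfr73 (0.0139) was 0.0529 and 0.0531 without Olfr1507 library 1 or 2, and that of Cdk1 (0.0241) was 0.0576 to 0.0689 without Olfr1507 library 1 or 3 or Olfr73 library 1. Ccnb1 shares reads with the copy Ccnb1-ps, which held 0 to 13.95 counts per library, so its own level is uncertain by that much.

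Genes of replication were more mixed. Mcm3, a subunit of the MCM helicase that opens DNA for copying (chr1:20802968-20820312), had 0.647, 0.594 and 1.06 normalised CPM in Olfr1507, 1.10, 3.74 and 2.42 in Olfr73, and 24.6, 24.4 and 14.4 in Olfr160, with no overlap between groups. Mcm4, another subunit of that ring (chr16:15623897-15637400), had 59.7, 68.1 and 69.0 normalised CPM in Olfr1507, 45.8, 61.6 and 51.1 in Olfr73, and 65.6, 72.6 and 76.2 in Olfr160. For Mcm4 all groups were high, and Olfr1507 overlapped both other groups. The log2 fold change in Olfr1507 over Olfr160 was -4.79 ± 0.51 for Mcm3 (SE, edgeR adjusted p = 0.000109) and -0.12 ± 0.13 for Mcm4, which did not pass (adjusted p = 0.464). The other helicase subunits lay between them, with log2 fold changes of -2.49 ± 0.24 for Mcm2, -2.37 ± 0.40 for Mcm5, -1.28 ± 0.43 for Mcm6 and -0.95 ± 0.20 for Mcm7, all past the test. The call of Mcm6 (adjusted p = 0.0338) was lost without any Olfr1507 library or Olfr160 library 2 or 3 (0.0534 to 0.143).

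Pcna, the clamp that holds the DNA polymerase (chr2:132249162-132253314), had 81.4, 87.4 and 85.1 normalised CPM in Olfr1507, 55.9, 60.6 and 71.5 in Olfr73, and 64.5, 69.3 and 66.5 in Olfr160. On this scale every Olfr1507 library was above every other library. Its log2 fold change was 0.34 ± 0.11 in Olfr1507 over Olfr160 (SE, edgeR adjusted p = 0.0298), but this was -0.08 with library size alone and -1.23 with libraries scaled to the transduction genes, and the adjusted p was 0.0539 to 0.0904 without any of the 6 libraries. Over Olfr73 it was 0.43 ± 0.11 (adjusted p = 0.0159), but -0.45 with the transduction scale, and its adjusted p was 0.0586 without Olfr1507 library 2. With library size alone it was 0.12 over Olfr73 and did not pass (edgeR adjusted p = 0.416). Pcna shares reads with the copy Pcna-ps2, which held 10.02 to 90.7 counts per library, and its counts were not whole in any of the 9 libraries.

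In Olfr73 over Olfr160, 5 of the 7 replication genes were lower, and Pcna (log2 fold change -0.09 ± 0.11) and Mcm6 (-0.00 ± 0.42) did not pass. Of these, Mcm2 (log2 fold change -2.12 ± 0.24, edgeR adjusted p = 0.00229) and Mcm3 (-3.13 ± 0.46, adjusted p = 0.00417) held without any 1 library. Mcm4 (adjusted p = 0.0496) lost its call without Olfr73 library 1 or 3 or any Olfr160 library (0.0676 to 0.139), Mcm5 (0.0422) without any Olfr73 library or Olfr160 library 1 or 2 (0.0665 to 0.159), and Mcm7 (0.0284) without Olfr73 library 2 or 3 or Olfr160 library 1 or 2 (0.0617 to 0.0969). Mcm3 in Olfr1507 over Olfr73 (log2 fold change -1.67 ± 0.47, edgeR adjusted p = 0.0239) and Mcm6 (-1.28 ± 0.43, adjusted p = 0.0449) were lower. Both lost their calls on leaving out single libraries: Mcm3 without Olfr1507 library 1 or 2 or Olfr73 library 2 (0.0822 to 0.0867), and Mcm6 without any Olfr1507 library or Olfr73 library 1 or 3 (0.0886 to 0.121).

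Other cell cycle genes are given here by phase. In Olfr1507 over Olfr160, 27 of 29 other genes of G2 and M phase were lower (median log2 fold change -4.76), and 14 of 28 other genes of S phase were lower and 4 higher, with a median of -1.83. The mitotic kinase Plk1 and the spindle protein Nusap1 had log2 fold changes of -4.85 ± 0.42 and -4.79 ± 0.44. Tyms and Rrm2, which make nucleotides for replication, had -2.69 ± 0.28 and -2.52 ± 0.35. By level these lists did not split cleanly by phase, as genes named after their values were seen show. In Olfr1507, Ncapd2 of the G2 and M phase list averaged 43.4 normalised CPM. Cdc6 and Dtl of the S phase list averaged 0.0812 and 0.130 there. The 4 higher genes, named after their values were seen, were Cdc45 (0.66 ± 0.17), Rfc2 (0.59 ± 0.09), Slbp (0.55 ± 0.11) and Fen1 (0.41 ± 0.12), and all 4 were below 0 (-0.89, -1.01, -1.02 and -1.16) with libraries scaled to the transduction genes, Fen1 also with library size alone (-0.0067). Against Olfr73, 16 of the 29 genes of G2 and M phase were lower in Olfr1507 (median log2 fold change -2.06), against 4 lower and 4 higher of the 28 genes of S phase, with a median of 0.04 (-0.02 with genes at 0 set at their bounds). Of the same lists, 16 of 29 and 6 of 28 were lower in Olfr73 over Olfr160, with medians of -2.01 and -1.01. In Olfr1507 over Olfr160, 27.7% of all tested genes were lower and 20.7% higher. The shares were 19.9% and 14.5% in Olfr1507 over Olfr73, and 10.5% and 7.45% in Olfr73 over Olfr160. For S phase, 14.3% were lower and 14.3% higher over Olfr73, and 14.3% higher over Olfr160, none above these shares. These shares also stand beside the counts of the other lists given above and below. The difference between the S phase list and the G2 and M phase list was not tested.

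**Figure D4:**
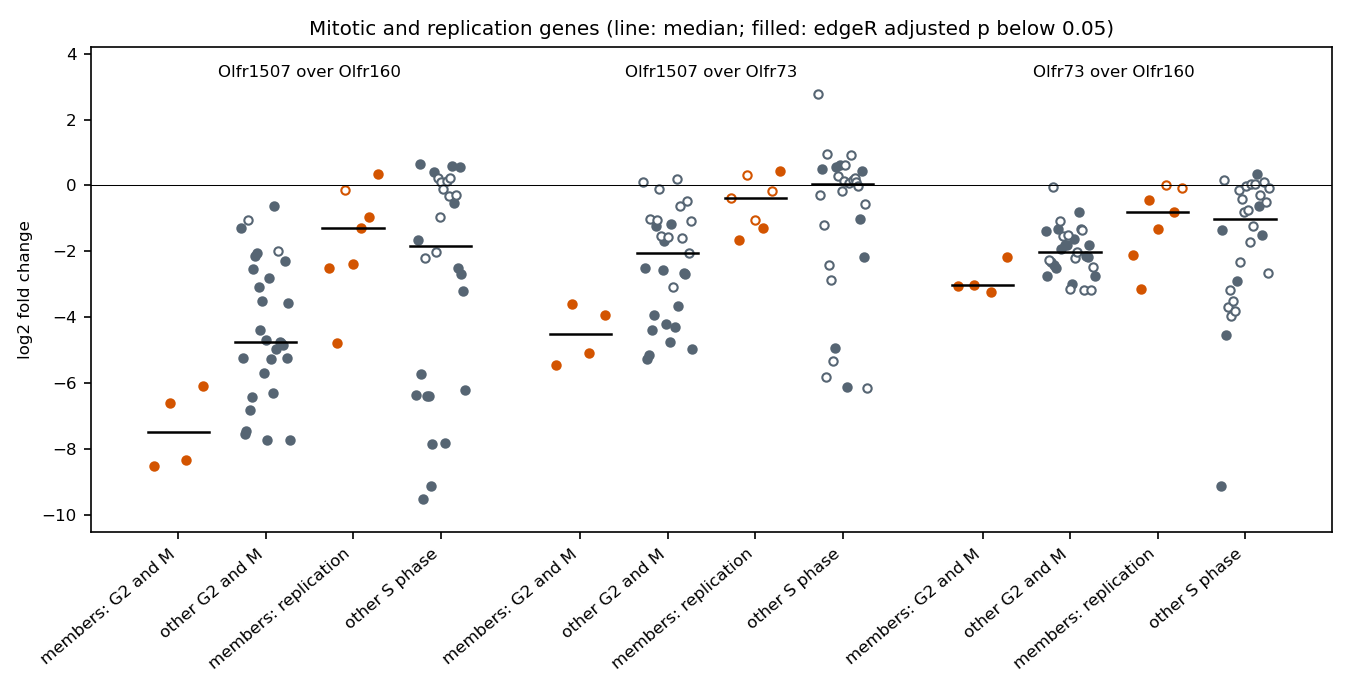
Log2 fold changes of the 4 mitotic and 7 replication genes of the list beside other genes of the same phases, with the median as a line; filled points passed an edgeR adjusted p of 0.05. The mitotic medians lie below the replication medians in each comparison (-7.47 against -1.28 in Olfr1507 over Olfr160), and the points of Ung, Cdca7, E2f8 and Brip1 in comparisons with a group at 0 counts are fitted values, not bounds.

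The stretches before the start sites of cycling genes are shown for the mitotic genes Top2a, Mki67 and Cdk1, which were lower in all 3 comparisons, and for the replication genes Mcm3 and Mcm5, while Gng8, an immature neuron gene, is shown as one without any of the motifs searched. The motif CCAAT is bound by NF-Y. Sites of the E2F factors were searched as TTCGCGC, in a second form as TTGGCGC and in a further form as TTCCCGC. The letters TTTGAA stand for the cell cycle homology region (CHR) known from mitotic genes. Each was searched on both strands, where the reverse of the E2F form TTGGCGC can overlap CCAAT. In windows of 300 bases around the start, CCAAT occurred in all 10 cycling genes with a RefSeq promoter and in 37.4% of 32851 promoters, an E2F site in 7 of the 10 (Ccnb1, Cdk1, Mcm3, Mcm5, Mcm6, Mcm7 and Mki67) and in 8.07% of promoters, and TTTGAA in 4 of the 10 (Cdk1, Mcm2, Mki67 and Top2a) and in 17.9%. A gene counted if any of its promoters held the motif, whereas the shares are of single promoters, so the 2 are not strictly alike. Ccnb1, the other mitotic gene lower in all 3 comparisons, is not printed and held no TTTGAA. A match is a description of the letters and not a binding site. The sequences below are RefSeq's (GRCm38.p6), in the sense of the gene and 5′ to 3′, upstream bases only, with matches in capitals. They lie at chr11:99024190-99024439 (minus strand) for Top2a, chr7:135716380-135716629 (minus) for Mki67, chr10:69352939-69353162 (minus) for Cdk1, chr1:20820313-20820562 (minus) for Mcm3, chr8:75109259-75109508 (plus) for Mcm5 and chr7:16891536-16891785 (plus) for Gng8.
Top2a: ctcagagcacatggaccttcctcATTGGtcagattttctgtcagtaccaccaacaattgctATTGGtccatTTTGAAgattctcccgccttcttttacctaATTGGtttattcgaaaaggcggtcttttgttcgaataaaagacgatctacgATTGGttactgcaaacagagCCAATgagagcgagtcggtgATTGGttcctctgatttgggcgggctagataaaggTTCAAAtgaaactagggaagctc
Mki67: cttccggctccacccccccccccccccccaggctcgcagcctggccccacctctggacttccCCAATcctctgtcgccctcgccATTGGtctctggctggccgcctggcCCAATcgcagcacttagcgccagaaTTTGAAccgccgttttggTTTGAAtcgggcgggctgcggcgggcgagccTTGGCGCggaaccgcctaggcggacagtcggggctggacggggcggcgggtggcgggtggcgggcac
Cdk1: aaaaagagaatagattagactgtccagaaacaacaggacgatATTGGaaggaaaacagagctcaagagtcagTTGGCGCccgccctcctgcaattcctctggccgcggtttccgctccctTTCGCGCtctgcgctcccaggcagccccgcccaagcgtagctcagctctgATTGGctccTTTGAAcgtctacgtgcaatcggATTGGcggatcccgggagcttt
Mcm3: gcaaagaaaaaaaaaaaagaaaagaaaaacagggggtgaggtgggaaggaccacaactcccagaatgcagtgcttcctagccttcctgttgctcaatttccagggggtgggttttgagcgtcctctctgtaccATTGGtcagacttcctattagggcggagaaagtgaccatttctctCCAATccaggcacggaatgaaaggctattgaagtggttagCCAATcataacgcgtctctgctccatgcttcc
Mcm5: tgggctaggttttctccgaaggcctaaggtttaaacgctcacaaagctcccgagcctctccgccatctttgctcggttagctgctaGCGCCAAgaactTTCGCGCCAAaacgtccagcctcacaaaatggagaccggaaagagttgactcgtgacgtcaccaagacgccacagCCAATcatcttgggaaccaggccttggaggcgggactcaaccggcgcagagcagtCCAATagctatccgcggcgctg
Gng8: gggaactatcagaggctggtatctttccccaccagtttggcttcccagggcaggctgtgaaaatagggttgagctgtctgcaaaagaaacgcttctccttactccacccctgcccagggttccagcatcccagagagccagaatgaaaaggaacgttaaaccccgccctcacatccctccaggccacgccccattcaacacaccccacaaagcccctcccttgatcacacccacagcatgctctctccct
In the printed bases, Top2a holds 6 matches to CCAAT and 2 to TTTGAA, Mki67 holds 3 to CCAAT, 1 to E2F and 2 to TTTGAA, and Cdk1 holds 3, 2 and 1. Mcm3 holds 3 matches to CCAAT and Mcm5 2 to CCAAT and 3 to E2F. Of the other stages, CCAAT occurred in 3 of 5 precursor genes, 4 of 10 immature neuron genes and 1 of 4 basal stem genes with a promoter, and the E-boxes CAGATG and CAGCTG, letters that proneural factors bind, in Hes6, Krt5 and Krt14, beside 30.6% of all promoters.

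Among neuronal precursor genes, Neurod1 and Kit set the groups far apart, and the others were low or did not pass. Neurod1, a proneural factor of late precursors (chr2:79452521-79456751), had 0.539, 0.891 and 0.892 normalised CPM in Olfr1507, 24.1, 17.2 and 17.8 in Olfr73, and 82.5, 125 and 51.3 in Olfr160. Kit, the receptor of stem cell factor on globose basal cells (chr5:75574916-75656722), had 0.324, 0.957 and 0.502 normalised CPM in Olfr1507, 1.67, 5.47 and 8.38 in Olfr73, and 27.4, 31.1 and 22.2 in Olfr160. For both genes the 3 groups did not overlap. Neurod1 had a log2 fold change of -6.77 ± 0.41 in Olfr1507 over Olfr160 (SE, edgeR adjusted p = 1.12e-05), -4.64 ± 0.38 in Olfr1507 over Olfr73 (adjusted p = 7.29e-05) and -2.13 ± 0.31 in Olfr73 over Olfr160 (adjusted p = 0.00389). In Kit these values were -5.43 ± 0.63 (adjusted p = 0.000176), -3.06 ± 0.59 (0.00439) and -2.38 ± 0.53 (0.0174), the last at 0.0667 without Olfr160 library 2. Exons of Neurod1 overlap those of Cerkl on the same strand, and reads there cannot be told apart.

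Neurog1, the proneural factor that acts before Neurod1, had 0 counts in every Olfr1507 and Olfr73 library and 0, 4 and 1 counts in Olfr160. Hes6, a regulator that promotes neuronal differentiation, was at most 1.09 normalised CPM in all 9 libraries and had a log2 fold change of -1.35 ± 0.62 in Olfr1507 over Olfr160 (SE, edgeR adjusted p = 0.101). Ezh2, the methyltransferase of the Polycomb complex, had 2.21, 3.53 and 3.35 normalised CPM in Olfr1507, 3.43, 4.02 and 8.05 in Olfr73, and 6.35, 8.85 and 3.42 in Olfr160. Its groups overlapped in every comparison, and its log2 fold change in Olfr1507 over Olfr160 was -1.03 ± 0.46 (SE, edgeR adjusted p = 0.0924). Among 9 other precursor genes that could be tested, of 14 listed, 7 were lower in Olfr1507 over Olfr160, 4 in Olfr1507 over Olfr73 and 4 in Olfr73 over Olfr160, with median log2 fold changes of -3.50, -2.62 and -1.32. Lgr5, a receptor of globose basal cells, had 0.593, 0.231 and 0.614 normalised CPM in Olfr1507, 7.52, 8.28 and 3.35 in Olfr73, and 41.2, 50.2 and 20.8 in Olfr160. It kept the order of Neurod1 and Kit in every library.

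Immature neuron genes moved in both directions. Of the 13 tested in Olfr1507 over Olfr160, 6 were lower and 4 higher. Tubb3, the neuronal beta tubulin (chr8:123411424-123422015), had 212, 215 and 289 normalised CPM in Olfr1507, 573, 583 and 568 in Olfr73, and 655, 846 and 856 in Olfr160. Gng8, the G protein gamma subunit of immature neurons (chr7:16891786-16895436), had 0.539, 1.22 and 0.781 normalised CPM in Olfr1507, 2.51, 1.54 and 3.35 in Olfr73, and 4.62, 6.18 and 4.98 in Olfr160. Both separated all 3 groups, with Olfr160 highest. In Olfr1507 over Olfr160 the log2 fold change of Tubb3 was -1.72 ± 0.15 (SE, edgeR adjusted p = 4.29e-05) and that of Gng8 was -2.61 ± 0.48 (adjusted p = 0.00203). In Olfr1507 over Olfr73 they were -1.27 ± 0.15 (adjusted p = 0.000427) and -1.52 ± 0.47 (0.0318), and the call of Gng8 was lost without Olfr1507 library 1 or 3 or Olfr73 library 1 or 3 (0.0594 to 0.103). In Olfr73 over Olfr160 neither passed the test, with log2 fold changes of -0.45 ± 0.15 (0.0668) and -1.09 ± 0.45 (0.123).

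Stmn1, a protein that takes microtubules apart, had 104, 120.0 and 76.7 normalised CPM in Olfr1507, 207, 135 and 196 in Olfr73, and 419, 386 and 290.3 in Olfr160. Dpysl3, a collapsin response mediator of growing axons, had 29.5, 45.4 and 21.0 normalised CPM in Olfr1507, 79.2, 57.3 and 64.9 in Olfr73, and 171, 236 and 161 in Olfr160. Hdac2, a histone deacetylase (chr10:36974544-37001889), had 4.80, 3.69 and 3.85 normalised CPM in Olfr1507, 9.06, 8.61 and 6.01 in Olfr73, and 23.2, 24.6 and 14.6 in Olfr160. In all 3 genes the groups stood apart, highest in Olfr160. Their log2 fold changes in Olfr1507 over Olfr160 were -1.86 ± 0.22 for Stmn1 (SE, edgeR adjusted p = 0.000202), -2.56 ± 0.28 for Dpysl3 (adjusted p = 0.000129) and -2.34 ± 0.28 for Hdac2 (adjusted p = 0.000196). Each was also lower in Olfr1507 over Olfr73 (log2 fold changes -0.84 ± 0.22, -1.06 ± 0.27 and -0.94 ± 0.27) and in Olfr73 over Olfr160 (-1.02 ± 0.22, -1.49 ± 0.27 and -1.40 ± 0.27). The calls in Olfr1507 over Olfr73 were lost for Stmn1 without Olfr1507 library 1 or 3 or Olfr73 library 1 (adjusted p 0.0505 to 0.0602), for Dpysl3 without Olfr1507 library 1 (0.0598) and for Hdac2 without Olfr1507 library 2 or 3 or Olfr73 library 1 or 2 (0.0688 to 0.0874). In the last comparison Stmn1 (0.0578) and Hdac2 (0.0512) lost theirs without Olfr160 library 2.

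Marcksl1, an actin-binding substrate of protein kinase C, had 0.485, 0.693 and 0.892 normalised CPM in Olfr1507, 0.396, 1.03 and 0.466 in Olfr73, and 4.28, 4.24 and 1.95 in Olfr160. Here Olfr1507 and Olfr73 overlapped, and both lay below Olfr160. The log2 fold change was -2.33 ± 0.61 in Olfr1507 over Olfr160 (SE, edgeR adjusted p = 0.0115) and -2.46 ± 0.61 in Olfr73 over Olfr160 (adjusted p = 0.0251). The call in Olfr73 over Olfr160 was lost at adjusted p of 0.0559 to 0.1 without Olfr73 library 1 or 3 or Olfr160 library 1 or 2.

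The genes that were higher in Olfr1507 over Olfr160 were Tuba1a, Crmp1, Dcx and Dbn1, and all 4 were lower instead when libraries were scaled to the transduction genes, with log2 fold changes of -0.85, -0.64, -0.64 and -0.94 beside a median of -1.72 over all tested genes. Tuba1a, the alpha tubulin of young neurons (chr15:98949837-98953703), had 9184, 8626 and 9074 normalised CPM in Olfr1507, 4742, 4324 and 5291 in Olfr73, and 4763, 6059 and 5669 in Olfr160. Dcx, the microtubule protein doublecortin (chrX:143855842-143933311), had 242, 244 and 232 normalised CPM in Olfr1507, 241, 191 and 221 in Olfr73, and 105, 133 and 149 in Olfr160. For Tuba1a the Olfr1507 libraries stood above the others, and for Dcx the Olfr160 libraries stood below the others. On the main scale the log2 fold change in Olfr1507 over Olfr160 was 0.70 ± 0.13 for Tuba1a (SE, edgeR adjusted p = 0.00239), 0.89 ± 0.14 for Dcx (adjusted p = 0.000899), 0.87 ± 0.18 for Crmp1, another collapsin response mediator (adjusted p = 0.00391), and 0.59 ± 0.18 for Dbn1, an actin-binding protein (adjusted p = 0.0204). Dbn1 lost its call without Olfr1507 library 1 or 3 or Olfr160 library 1 or 2 (0.0515 to 0.0734). With library size alone, Tuba1a (log2 fold change 0.29, edgeR adjusted p = 0.0548) and Dbn1 (0.18, adjusted p = 0.418) lost their calls. Dbn1 also lost its call with limma on log2(TPM + 1) (adjusted p = 0.191). The counts of Tuba1a were not whole in any library, and its reads can be shared with the near copies Tuba1b and Tuba1c.

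Dcx and Dbn1 were also higher in Olfr73 over Olfr160 (log2 fold changes 0.76 ± 0.14 and 0.86 ± 0.18, edgeR adjusted p = 0.00891 and 0.0122, the second at 0.0579 without Olfr160 library 2). In Olfr1507 over Olfr73, Tuba1a (0.90 ± 0.13, adjusted p = 0.00119) and Crmp1 (0.64 ± 0.18, adjusted p = 0.0223) were higher. None of these 4 calls held when libraries were scaled to the transduction genes, where Crmp1 was at -0.25 in Olfr1507 over Olfr73. The call of Crmp1 was lost without any Olfr1507 library or Olfr73 library 2 (0.0533 to 0.0653). It was also lost with library size alone (log2 fold change 0.33, edgeR adjusted p = 0.145) and with limma on log2(TPM + 1) (adjusted p = 0.127). Gap43, the growth protein that defines immature neurons, had 79.9, 114 and 70.2 normalised CPM in Olfr1507, 77.9, 41.2 and 65.4 in Olfr73, and 112, 105 and 102 in Olfr160. Olfr1507 overlapped both other groups, with a log2 fold change of -0.27 ± 0.24 over Olfr160 (SE, edgeR adjusted p = 0.368). Stmn2 and Dpysl5 did not pass there either (-0.35 ± 0.13 and -0.30 ± 0.21, adjusted p = 0.0519 and 0.247). In Olfr73 over Olfr160, Gap43 (-0.79 ± 0.24, adjusted p = 0.0495) and Dpysl5 (-0.70 ± 0.21, adjusted p = 0.0451) were lower, but lost their calls without Olfr73 library 2 or 3 or Olfr160 library 2 or 3, and Gap43 also without Olfr160 library 1 (0.0748 to 0.125 for Gap43 and 0.0835 to 0.139 for Dpysl5). Cxcr4, a chemokine receptor of young neurons, had 0 counts in Olfr1507, 2, 2 and 1 in Olfr73, and 2, 0 and 0 in Olfr160.

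Other immature neuron genes were split in the same way. Of 16 tested of 18 listed, 8 were higher and 8 lower in Olfr1507 over Olfr160, with a median log2 fold change of -0.41, 5 higher and 7 lower in Olfr1507 over Olfr73 (median -0.48), and 2 higher and 6 lower in Olfr73 over Olfr160 (median -0.05). The beta tubulin Tubb2a had a log2 fold change of -2.36 ± 0.20 in Olfr1507 over Olfr160, and the stathmin Stmn4 and the vesicle protein Nsg1 had 1.31 ± 0.13 and 1.46 ± 0.16, or -0.25 and -0.061 with libraries scaled to the transduction genes, a scale on which all 8 higher genes were below 0. Within the tubulins, Tubb3 and Tubb2a were thus lower and Tuba1a higher, the last on the main scale and not on that of the transduction genes.

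In 16 of the 33 tested genes every Olfr160 library was above every Olfr73 library, and every Olfr73 library above every Olfr1507 library, beside 8.21% of all tested genes. These were Trp63, Krt5, Krt14, Top2a, Cdk1, Ccnb1, Mcm2, Mcm3, Mcm5, Kit, Neurod1, Gng8, Stmn1, Dpysl3, Tubb3 and Hdac2. They come from all 4 stages, and 12 genes of the list passed the test as lower in all 3 comparisons. In Olfr73 over Olfr160, 10.5% of all tested genes were lower, so the share lower in all 3 comparisons is at most that. Within Olfr160, library 3 had the lowest level for 20 of the 33 genes and library 2 the highest for 18. The median ratio of library 2 to library 3 was 1.92 for basal stem genes, 1.65 for cycling genes, 1.92 for precursor genes and 1.03 for immature neuron genes. Library 3 was also the Olfr160 library with the highest Omp and the largest share of its tagged receptor. Within Olfr1507, library 2 was the highest for all 5 basal stem genes.

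Values in TPM, the authors' transcript abundance corrected for length and depth, allow levels of different genes to be compared. By TPM, Tuba1a was the most abundant gene of the list in every group, at 9679 ± 485.4 in Olfr1507, 5727 ± 539 in Olfr73 and 6807 ± 843.2 in Olfr160 (SD, n = 3 each). Stmn1 followed in Olfr1507 and Olfr160, at 261.5 ± 53.8 TPM in Olfr1507, 517.2 ± 126.5 in Olfr73 and 1102 ± 173.1 in Olfr160, and Tubb3 was at 244.7 ± 41.5, 655.5 ± 19.4 and 926.9 ± 139.7 in those groups. The order of these 2 genes in Olfr1507 and in Olfr160 was within their spread. Pcna was the highest cycling gene in every group, at 118.6 ± 1.74 TPM in Olfr1507, 98.9 ± 10.3 in Olfr73 and 109.4 ± 2.72 in Olfr160. Krt14 was the highest basal stem gene, at 1.87 ± 0.788 TPM in Olfr1507, 13.3 ± 6.85 in Olfr73 and 103.2 ± 51.2 in Olfr160, where Krt5 (83.6 ± 33.4) was within its spread.

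Ratios of TPM within a library do not depend on how libraries are scaled, and 5 pairs, all chosen after their values were seen, are given as a description. Ccnb1 was at 0.119%, 0.0581% and 0.195% of Pcna in Olfr1507, 1.42%, 1.93% and 6.63% in Olfr73, and 34.4%, 35.7% and 11.2% in Olfr160. The Olfr1507 values of this pair rest on 2 Ccnb1 counts in each library and are uncertain. Mcm3 was at 2.02%, 1.05% and 1.78% of Mcm4 in Olfr1507, 2.86%, 6.77% and 8.18% in Olfr73, and 43.7%, 47.1% and 23.2% in Olfr160. In both pairs the mitotic or helicase gene was low against its high partner in Olfr1507 and much closer to it in Olfr160, without overlap between groups. Gng8 was at 0.234%, 0.636% and 0.396% of Gng13, its counterpart in mature neurons, in Olfr1507, 2.93%, 1.95% and 2.70% in Olfr73, and 9.78%, 8.32% and 5.03% in Olfr160. In Olfr1507 these rest on 10, 37 and 14 counts of Gng8. The means there were 0.847 normalised CPM and 9.42 TPM for Gng8, and 41.7 and 2248 for Gng13, so this ratio depends on the length correction. Tubb3 was at 2.198%, 2.37% and 3.03% of Tuba1a in Olfr1507, 11.5%, 12.8% and 10.2% in Olfr73, and 13.1%, 13.3% and 14.4% in Olfr160. In both pairs the 3 groups did not overlap, in the order Olfr1507, Olfr73, Olfr160 from low to high. Gap43 against Omp was at 0.586%, 0.923% and 0.515% in Olfr1507, 0.932%, 0.422% and 0.705% in Olfr73, and 2.43%, 1.70% and 1.39% in Olfr160, so that Olfr1507 and Olfr73 overlapped and Olfr160 stood above both.

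**Figure D5:**
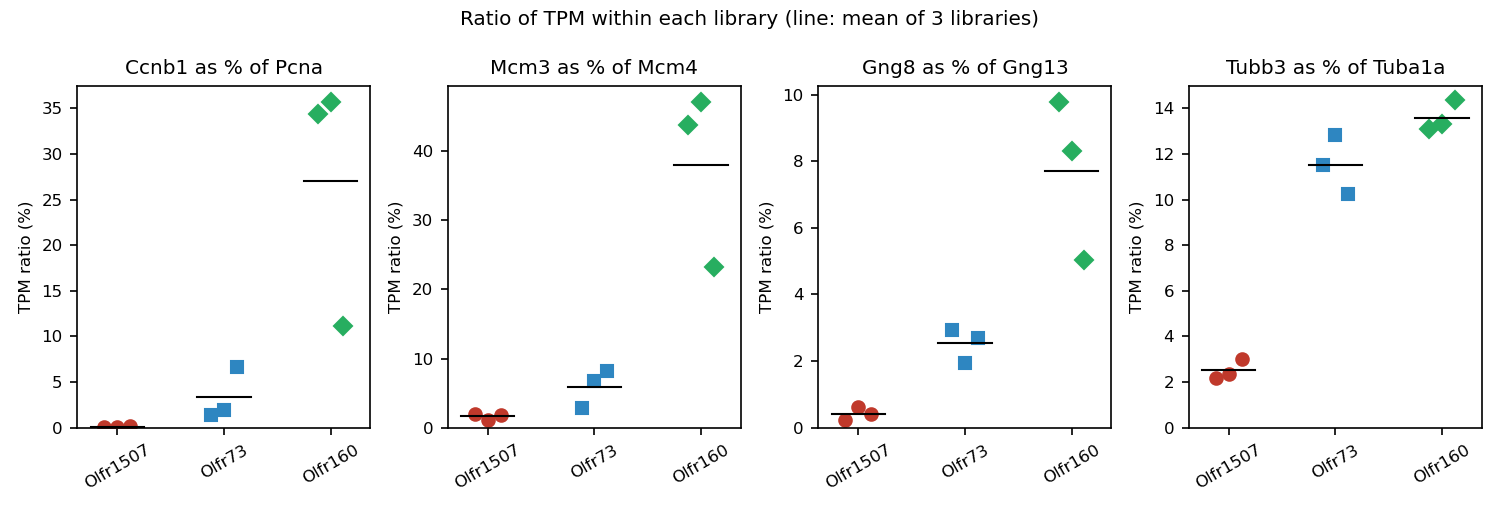
Ratio of the TPM of 2 genes within each library, in percent, with a line at the mean of the 3 libraries of a group. The Ccnb1 to Pcna and Mcm3 to Mcm4 ratios are at most 2.02% in Olfr1507 and at least 11.2% in Olfr160, and Tubb3 to Tuba1a separates Olfr1507 from both other groups.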

How the data were processed

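RNA of sorted olfactory neurons was sequenced in 9 libraries, 3 for each of 3 genotypes. Per the submitters' processing notes, STAR 2.6.1, RSEM 1.3.1, DESeq2 and mm10 were used, and whether counting was by strand is not given in the sources used here. Deposited were the authors' expected counts per gene, of which 4.06% to 5.54% per library were not whole, and the authors' TPM (transcript abundance corrected for length and depth). The series text speaks of duplicates, whereas the labels name 3 libraries per genotype, all of which were used.

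Expected counts were rounded and fitted over all genes with edgeR 4.0.16 in R 4.3.3 (filterByExpr by group, TMM scaling, robust quasi-likelihood F test, all 9 libraries, no covariates), with Benjamini-Hochberg adjustment over the 16399 tested genes and a threshold of 0.05. Normalised CPM are counts scaled to the TMM library size. TPM served for levels of different genes and, as log2(TPM + 1), for limma 3.58.1 as an alternative. DESeq2 1.42.0 was another. Ratios of genes with few counts have exact 95% intervals. Simulated data with known changes were used to test the scripts.

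The members and all lists were chosen with earlier results of these data known. Named genes are the 35 members, up to 3 genes per further list with the lowest adjusted p in Olfr1507 over Olfr160, and Omp, Adcy3, Cyp2g1, Foxj1, Csf1r, Lgr5 and Gng13; others are said to be named after their values were seen. Some genes are not reported here. Coordinates come from GENCODE for mm10. Exons of Krt5, Icam1, Ezh2, Top2a, Stmn1, Tuba1a, Mcm7 and Neurod1 overlap those of other genes, so reads there are uncertain. RefSeq promoters (GRCm38.p6) matched 29 of the 35 genes, not Trp63, Mcm4, Gap43, Stmn1, Stmn2 and Dpysl3; printed stretches leave out bases within annotated transcripts.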

Additional observations from a re-analysis of the deposited data

How the results depend on the processing

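Of 1449 recomputed values of the 99 gene tests, 1200 kept their direction and their side of the threshold, 156 kept the direction and lost the call, 59 kept it and gained one, and 34 turned. With library size alone, 2 genes of the list were higher in Olfr1507 over Olfr160 (5 on the main scale) and 1 in Olfr1507 over Olfr73 (3 on the main scale). The median over all tested genes was then -0.56, -0.47 and -0.12 on the log2 scale in Olfr1507 over Olfr160, Olfr1507 over Olfr73 and Olfr73 over Olfr160. The log2 fold change turned for Pcna in Olfr1507 over Olfr160 (-0.076) and, in Olfr1507 over Olfr73, for Stmn2 (-0.24), Dcx (-0.18) and Marcksl1 (-0.17). With libraries scaled to the transduction genes those medians were -1.72, -1.04 and -0.70, the count of higher genes was 0 in each comparison (with edgeR, also 0 at an unadjusted p of 0.05), and 26 genes were lower in Olfr1507 over Olfr73. The values that turned were -1.23 for Pcna, -0.85 for Tuba1a, -0.64 for Crmp1, -0.64 for Dcx and -0.94 for Dbn1 in Olfr1507 over Olfr160, all above that median, -0.40 for Crmp1 in Olfr73 over Olfr160, and in Olfr1507 over Olfr73 -0.45 for Pcna, -0.57 for Mcm4, -0.41 for Hes6, -0.38 for Gap43, -0.81 for Stmn2, -0.49 for Dpysl5, -0.25 for Crmp1, -0.75 for Dcx and -0.74 for Marcksl1. With limma on log2(TPM + 1), 3 genes were higher in Olfr1507 over Olfr160 and 1 in Olfr1507 over Olfr73. Of all tested genes, 12.9% and 8.66% were higher there. With limma, Stmn2 (-0.057) and Dcx (-0.24) turned in Olfr1507 over Olfr73, and Mcm6 (0.15) in Olfr73 over Olfr160. With the 6 compared libraries alone, 12 genes were lower in Olfr73 over Olfr160, beside 8.73% of all tested genes, and Mcm6 turned there (0.0095). At an adjusted p of 0.01, 3, 1 and 1 genes were higher in the 3 comparisons, 8 were lower in Olfr1507 over Olfr73 and 7 in Olfr73 over Olfr160. Of all tested genes, 13.2%, 7.35% and 1.59% were then higher. The shares lower were 9.95% in Olfr1507 over Olfr73 and 3.1% in Olfr73 over Olfr160. With RLE size factors, no low-count filter and DESeq2, the counts of genes moved by less than 1.5 times, but Pcna lost its call in Olfr1507 over Olfr160 (adjusted p 0.0953, 0.0566 and 0.0888). The cause of these changes was not tested.

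Leaving out each library in turn gave 3 to 4 higher and 21 to 22 lower genes in Olfr1507 over Olfr160. Of all tested genes, 15.4% to 19.2% were then higher and 20.8% to 24.6% lower. The counts were 1 to 3 and 10 to 15 in Olfr1507 over Olfr73, beside 9.02% to 12.9% and 12% to 18.7%. In Olfr73 over Olfr160 they were 1 to 2 and 7 to 16, beside 1.88% to 8.48% and 3.88% to 10.1%. Log2 fold changes that turned were those of Marcksl1 in Olfr1507 over Olfr73 (-0.11 to 0.69, below 0 without Olfr1507 library 3 or Olfr73 library 1 or 3), Stmn2 there (-0.021 to 0.17, below 0 without Olfr73 library 2), and, in Olfr73 over Olfr160, Mcm6 (-0.20 to 0.33, above 0 without library 2 of either group) and Ezh2 (-0.73 to 0.079, above 0 without Olfr160 library 2). An alternative chosen after seeing the data kept library 3 as the lone Olfr160 library. The median log2 fold change of the list was then -1.82 in Olfr1507 over Olfr160 and -0.86 in Olfr73 over Olfr160. Over all tested genes it was -0.08 and -0.01. Calls are not given here, since they would assume that the lone library varies like the other groups. In Olfr73 over Olfr160, Mcm6 (0.21), Ezh2 (0.59) and Crmp1 (-0.14) turned.

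The replicate numbers did not pair the libraries: deviations of same-numbered libraries correlated at -0.225 to 0.141. With the replicate number as a block, 5 genes were higher and 21 lower in Olfr1507 over Olfr160, 3 and 15 in Olfr1507 over Olfr73, and 2 and 15 in Olfr73 over Olfr160, where Mcm6 turned (0.0029). Of all tested genes, 19.5% and 25.7%, 12.8% and 16.5%, and 6.23% and 8.93% were higher and lower in those comparisons. At 3 counts, or 0.099 to 0.167 normalised CPM, the depth limits what can be said of Neurog1, Cxcr4, Sox2, Mki67, Cdk1 and Ccnb1 in Olfr1507. Ccnb1 held 2 counts in each Olfr1507 library, and Trp63 held 1 and 3 counts in Olfr1507 libraries 1 and 3.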
